A study of Mus musculus with 18 samples.

Results

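RNA of wild type mouse embryos without the head was compared between E9.5 and E10.5, successive days of mid-gestation, in 3 libraries per stage, 6 of the 18 libraries of the series. The wild type embryos were littermates of mutants of the HoxB cluster and carried no engineered allele, per the labels, which name no strain or sex and do not say whether a library is a single embryo or a pool. The p-values therefore measure the spread between these libraries. Homozygous HoxB Del(i9-13) embryos of the same stages, 3 libraries each, served as a repeat of the stage comparison in separate libraries. The kit for E9.5 selected poly(A) RNA and that for E10.5 removed ribosomal RNA, in every library, so stage and library kit cannot be told apart in any value given here. To limit what the kit alone could move, only protein-coding genes were read, 21642 of the 55141 in the count table. Left out were 104 histone genes, 36 mitochondrial genes and 33359 others, chiefly noncoding genes and pseudogenes. Of the genes kept, 14048 had enough counts to be tested.

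Between these stages the mouse trunk lengthens from its posterior end. Progenitors of the tail bud, marked by T (Brachyury), Cdx genes and Wnt and Fgf signals, supply spinal cord and presomitic mesoderm, and a segmentation clock of oscillating Notch and Wnt targets divides that mesoderm into somites. Hox genes of successive paralog groups are switched on in order along each cluster and give the segments their identity. More anteriorly, the spinal cord makes its first neurons, somites start myogenesis, limb buds grow out, and blood formation moves from the yolk sac to the liver.

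Promoter sequences are shown for 4 genes of the tail bud and the clock that were among those lowest at E10.5 relative to E9.5 and whose RefSeq start lies at or before every GENCODE start. They were chosen after their values were seen. Cdx4 and Evx1 are homeobox genes of the tail bud, Tbx6 is the T-box factor that specifies presomitic mesoderm, and Mesp2 sets the boundary of the forming somite. Each sequence holds the 250 bases before the RefSeq start (build GRCm38.p6, which is mm10), all on the + strand, at chrX:103321148-103321397 for Cdx4, chr6:52313248-52313497 for Evx1, chr7:126781233-126781482 for Tbx6 and chr7:79810477-79810726 for Mesp2. Capitals mark matches on either strand to a T-box half-site (AGGTGT), an N-box (CACNAG), a TCF/LEF core (CTTTGA) or an E-box (CANNTG).
Cdx4: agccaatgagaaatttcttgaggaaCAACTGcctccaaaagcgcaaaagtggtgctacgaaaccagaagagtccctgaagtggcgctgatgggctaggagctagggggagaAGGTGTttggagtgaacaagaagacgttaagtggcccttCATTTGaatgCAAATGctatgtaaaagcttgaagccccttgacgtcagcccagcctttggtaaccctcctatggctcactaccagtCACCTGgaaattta
Evx1: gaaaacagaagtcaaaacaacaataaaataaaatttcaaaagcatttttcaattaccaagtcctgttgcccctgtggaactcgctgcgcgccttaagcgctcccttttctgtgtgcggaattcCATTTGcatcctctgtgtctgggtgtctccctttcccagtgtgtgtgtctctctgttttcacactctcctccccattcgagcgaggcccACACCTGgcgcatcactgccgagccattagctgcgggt
Tbx6: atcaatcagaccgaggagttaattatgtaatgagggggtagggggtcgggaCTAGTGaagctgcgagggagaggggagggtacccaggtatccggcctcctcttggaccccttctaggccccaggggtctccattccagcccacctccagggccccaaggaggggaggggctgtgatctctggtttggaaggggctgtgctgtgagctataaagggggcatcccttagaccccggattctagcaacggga
Mesp2: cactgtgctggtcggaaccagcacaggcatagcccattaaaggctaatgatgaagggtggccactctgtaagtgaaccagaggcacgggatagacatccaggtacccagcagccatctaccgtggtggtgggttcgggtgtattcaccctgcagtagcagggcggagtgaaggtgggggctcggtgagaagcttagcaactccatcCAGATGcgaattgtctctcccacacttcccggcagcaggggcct
Cdx4 held 1 T-box half-site, 139 to 134 bases before its start, and 4 E-boxes. Evx1 held 1 T-box half-site, read on the other strand, and 2 E-boxes, one of which overlaps it. Tbx6 held 1 N-box on the other strand, and Mesp2 held 1 E-box. None of the 4 windows held the TCF/LEF core. Among all 32851 RefSeq promoters of the same length, 11.8% held the T-box half-site, 36.7% the N-box, 13.8% the TCF/LEF core and 66.2% the E-box. The matches are descriptions of these windows, not of binding.

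Wild type libraries held 29.8 to 35.9 M counts at E9.5 and 21.9 to 23.7 M at E10.5. The kept genes took 96.6 to 96.7% of the counts at E9.5 and 93.8 to 94.5% at E10.5. Histone genes, most of whose transcripts lack a poly(A) tail, took 0.278 to 0.284% at E9.5 and 1.74 to 1.95% at E10.5, and the noncoding Rn7sk took at most 0.000317% and at least 0.687%. Both coincide with the change of kit, and neither class enters what follows. Over the 14042 kept genes with a known exon composition, the stage difference also ran with GC content (Spearman rho -0.44 across genes, which are not independent replicates). Among the 3511 genes lowest in GC the median log2 change was 0.31, and among the 3511 highest in GC it was -0.33. The part of the kit in this trend was not tested. List medians, and single values where the offset made or ended a call or turned a direction, are therefore also given from a fit with an offset for exon length and GC content, after which the rho was 0.02.

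**Figure D1:**
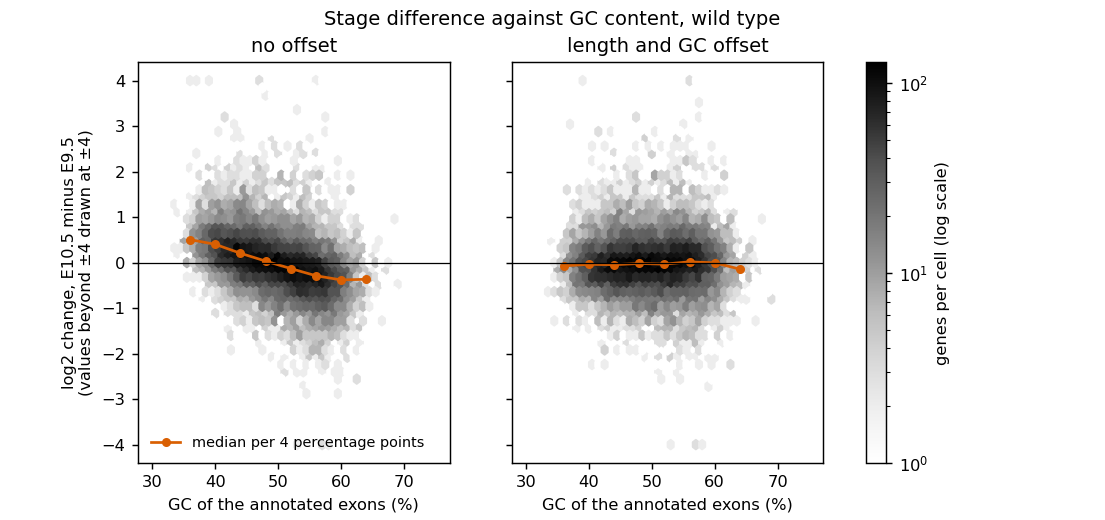
The log2 change from E9.5 to E10.5 in wild type (vertical axis) is plotted against the GC content of each gene's annotated exons in percent (horizontal axis), with the number of genes per cell in grey on a log scale and medians per 4 percentage points as orange points. Without the offset (left) the medians run from above 0 in GC-poor genes to below 0 in GC-rich genes, and with the length and GC offset (right) they lie near 0.

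Levels below are CPM, the counts scaled to the same total of kept genes in each library, log2 values are fitted changes of E10.5 minus E9.5, and a gene rose or fell where the adjusted p was under 0.05 (edgeR quasi-likelihood test, Benjamini-Hochberg adjustment over the 16662 genes tested). By this rule 57.9% of the kept genes tested differed between the stages. Of them 3829 rose (27.3%) and 4304 fell (30.6%), and the median over all kept genes was -0.02. With an absolute log2 change of at least 1, the calls came to 863 genes that rose (6.14%) and 809 that fell (5.76%), 11.9% in all. With the offset 3298 genes rose (23.5%) and 4096 fell (29.2%), 52.6% in all, of which 5.04% rose and 4.66% fell by at least 1 (9.7%). The split of the calls depended on the scaling. Upper quartile scaling gave 4704 that rose and 3504 that fell. Tests on the deposited FPKM, whose median over kept genes was -0.21, gave 1792 that rose and 5491 that fell. On that scale a small fall passes more readily and a small rise less. A share of calls within a gene group is therefore read beside the shares over all kept genes, 27.3% that rose and 30.6% that fell.

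Groups of genes with a known place or role moved in opposite directions. The 36 lists used here hold 792 genes of the table, of which 723 were tested. The lowest medians were those of tail bud genes and of Hox genes of paralog groups 1 to 9. High medians were those of heart muscle, liver, skeletal muscle and neurons. Of these the heart, liver and skeletal muscle medians moved with single libraries (below 1.1 in fits without 1 library). In bulk tissue, fewer cells of a type and less RNA per cell cannot be told apart, and this holds for every group below.

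**Figure D2:**
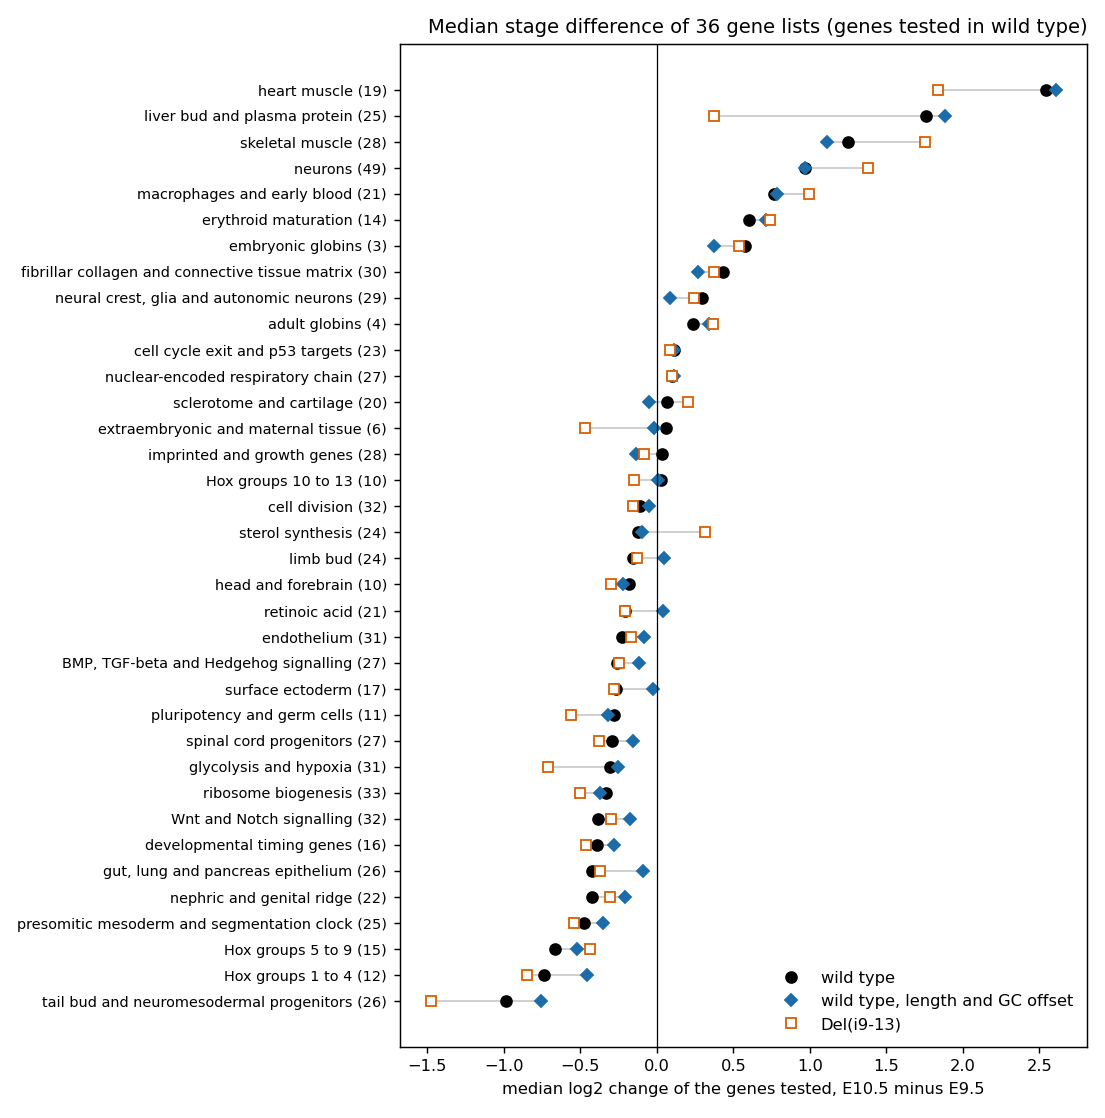
Each line is a gene list with the number of its genes tested in wild type, and the horizontal axis is the median log2 change from E9.5 to E10.5 in wild type (black), in wild type with the length and GC offset (blue) and in Del(i9-13) (orange squares). Medians in wild type run from -0.98 for tail bud genes to 2.54 for heart muscle, and the sterol synthesis list is below 0 in wild type and above 0 in Del(i9-13).

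The tail bud list was the lowest of all. Of its 26 genes tested, 14 fell and 1 rose, with a median log2 change of -0.98, or -0.76 with the offset, where 11 fell and 3 rose. Cdx4 (chrX:103321398-103330592) read 14.4, 22.9 and 26.4 CPM at E9.5 and 1.90, 3.30 and 0.135 CPM at E10.5, a log2 change of -3.60 (SE 0.82, adjusted p = 0.019). The stages did not overlap, and the third E10.5 library was far below the other two. Its relatives Cdx1, at 13.1 ± 1.32 CPM (SD, n = 3) against 3.11 ± 1.21, and Cdx2, at 23.8 ± 6.14 against 5.0 ± 3.4, fell by 2.10 and 2.28 on the log2 scale. Cdx proteins activate posterior Hox genes and Wnt and Fgf signalling in the tail bud. Evx1 (-2.12), the Wnt target Greb1 (-1.09), Apela (-1.74), which encodes a peptide ligand of the apelin receptor, the receptor tyrosine kinase Epha1 (-1.24) and the non-canonical ligand Wnt5a (-0.41) fell as well. Sox2, which neural progenitors elsewhere in the spinal cord also express, was the exception and rose by 0.20 (adjusted p = 0.044).

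T, a defining marker of the list as Cdx2 is, did not pass the test. The defining markers Fgf8 and Wnt3a are not reported here. T read 11.3, 41.6 and 37.4 CPM at E9.5 and 12.7, 13.0 and 2.94 CPM at E10.5, so that the first E9.5 library lay within the E10.5 range. In the fit of all 18 libraries T passed (-1.65, adjusted p = 0.011). Tail bud genes were thus low in E9.5 library 1 and in E10.5 library 3 relative to their replicates. The list's summed level was 791 CPM against 988 and 952 at E9.5, and 617 CPM against 635 and 699 at E10.5. Differences in stage or dissection between these libraries were not tested. Cdx2 did not pass with the offset. Cdx2 and Cdx4 no longer passed without E9.5 library 2 or 3 or without E10.5 library 1 (adjusted p 0.057 to 0.11), and without E10.5 library 2 their log2 changes were -2.91 and -4.43. Sox2 no longer passed without E9.5 library 2 or 3 or E10.5 library 2 or 3 (adjusted p 0.087 to 0.16).

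Presomitic and clock genes moved the same way. Of 25 tested, 15 fell and 1 rose, with a median of -0.48 (-0.35 with the offset). Mesp2 (chr7:79810727-79813439) read 2.44, 1.96 and 3.51 CPM at E9.5 and 0.238, 0 and 0.0903 CPM at E10.5 (log2 -4.59, SE 0.57, adjusted p = 0.00013). Its change was -5.76 without E10.5 library 1. The clock repressor Hes7 read 3.84, 3.77 and 7.55 CPM at E9.5 and 0.998, 0.802 and 0.316 CPM at E10.5 (-2.87, SE 0.43, adjusted p = 0.00054). Tbx6 read 8.46, 15.5 and 18.9 CPM at E9.5 and 3.47, 2.99 and 0.632 CPM at E10.5 (-2.63, SE 0.63, adjusted p = 0.018). In all 3 genes every E9.5 library was above every E10.5 library. Tbx6 missed the threshold narrowly without E9.5 library 2 or 3 or E10.5 library 2 (adjusted p 0.0501 to 0.051).

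Other members named here fell as well. Snai1, a driver of epithelial to mesenchymal transition, went from 41.5 ± 2.33 to 16.7 ± 2.7 CPM (-1.34), the somite factors Meox1 and Foxc2 fell by 0.89 each, and the Wnt targets Axin2 and Nkd1 by 0.67 and 0.71. The Fgf feedback gene Dusp6 was the one that rose, from 116 ± 3.11 to 187 ± 11.2 CPM (0.66), with no overlap. In the wider Wnt and Notch list 18 of 32 fell and 6 rose (median -0.38, offset -0.18). Lef1 (chr3:131110471-131224356), a nuclear partner of beta-catenin, read 112, 123 and 125 CPM at E9.5 and 39.6, 44.7 and 39.6 CPM at E10.5 (-1.57, SE 0.07, adjusted p = 2.1e-07), and its relative Tcf7 went from 89.2 ± 1.45 to 29.9 ± 5.45 CPM (-1.61). Wnt1 fell by 1.63. The Notch ligand Jag1 (0.59) and the receptor Notch2 (0.70) rose.

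**Figure D3:**
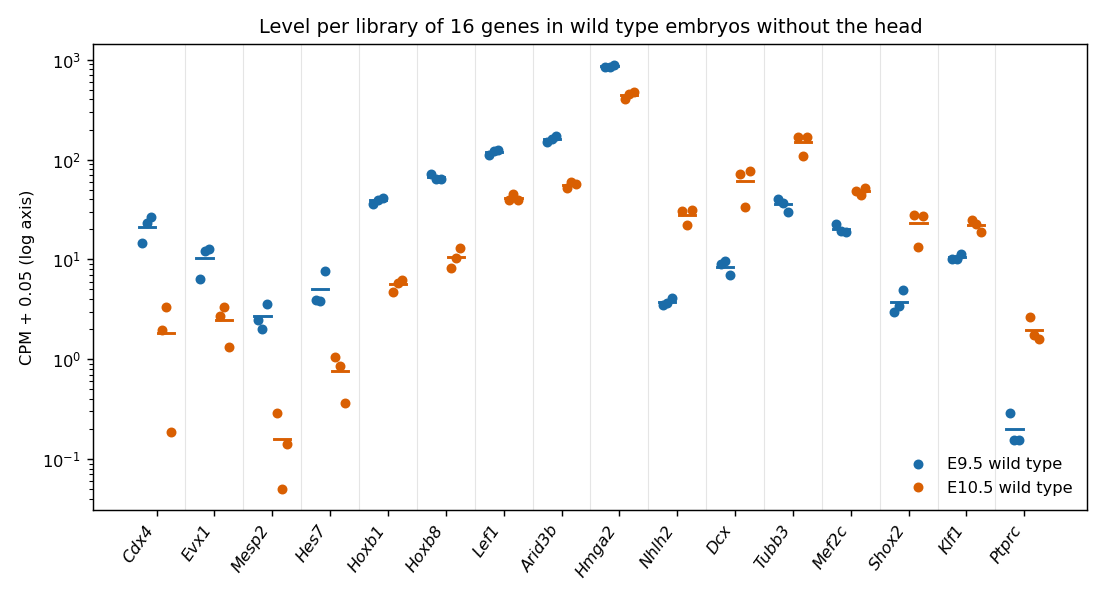
Levels of 16 genes in each wild type library are plotted as CPM plus 0.05 on a log axis, with E9.5 in blue, E10.5 in orange and a bar at each group's mean. Genes from Cdx4 to Hmga2 are higher in all E9.5 libraries, genes from Nhlh2 to Ptprc are higher in all E10.5 libraries, and Cdx4 in the third E10.5 library lies far below the other two.

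Most Hox genes of the anterior and middle paralog groups fell, and in groups 10 to 13 Hoxc10 was the one gene that passed in the main comparison. In groups 1 to 4, 11 of 12 genes fell and none rose (median -0.74, offset -0.46). In groups 5 to 9, 12 of 15 fell and none rose (median -0.67, offset -0.53). With the offset 1 of these 15, Hoxd8, rose (0.36, adjusted p = 0.0059). In groups 10 to 13, 10 of 12 genes were tested, 1 fell and none rose (median 0.02), and with the offset 2 fell. The difference between these sets was not tested, and the median of groups 10 to 13 changed sign in 6 of the alternative settings. Of all 37 Hox genes tested, 24 fell, against 30.6% of all kept genes.

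The HoxB cluster held the steepest falls. Hoxb1 (chr11:96365752-96368256), which acts in the hindbrain and the early posterior embryo, read 35.9, 39.2 and 41.5 CPM at E9.5 and 4.66, 5.80 and 6.23 CPM at E10.5 (log2 -2.83, SE 0.12, adjusted p = 1.3e-07). Hoxb8 (chr11:96281905-96285315), of the trunk, read 71.8, 64.3 and 64.4 CPM at E9.5 and 8.18, 10.3 and 12.9 CPM at E10.5 (-2.7, SE 0.15, adjusted p = 2.8e-06). In both, all E10.5 libraries lay far below the E9.5 range. Hoxb5 (-1.76), Hoxb9 (-1.48), Hoxb6 (-0.91) and Hoxb3 (-0.75) fell less, and Hoxb4, Hoxb2 and Hoxb7 fell by 0.51, 0.33 and 0.27. On the deposited FPKM scale, which allows a comparison between genes, Hoxb9 had the highest mean of all Hox genes at both stages, 84.2 at E9.5 and 26.1 at E10.5. Hoxb8 was above Hoxb7 at E9.5, with 22.1 against 11.3 FPKM, and below it at E10.5, with 3.74 against 8.54 FPKM, a change of order that was not tested. Hoxb13 was at or near 0, with 0.119, 0.0356 and 0.140 CPM at E9.5 and 1.19, 0.134 and 0.0452 CPM at E10.5, and had too few counts to be tested, as had Hoxc12.

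Genes of the other clusters fell as well. Hoxa3 fell by 1.56, Hoxc6 by 1.29, Hoxc8 by 1.06 and Hoxd9 by 1.00. Falls of 0.33 to 0.84 were seen for Hoxa4, Hoxa5, Hoxa6, Hoxa7, Hoxc4, Hoxc9, Hoxd1, Hoxd3 and Hoxd4. Hoxc10, at 47.7, 67.8 and 66.7 CPM at E9.5 and 17.5, 16.5 and 15.3 CPM at E10.5, fell by 1.92 (SE 0.14, adjusted p = 8.3e-06) without overlap. Hoxa9 at 42.8 to 47.0 and 44.6 to 55.8 CPM, Hoxa10 at 25.1 to 31.6 and 26.3 to 42.5 CPM and Hoxd13 at 9.80 to 17.9 and 11.4 to 12.9 CPM overlapped between the stages and did not pass. Neither did Hoxa2, Hoxd8, Hoxd10, Hoxa13 and Hoxc13, which also overlapped, nor Hoxc5 (-0.19), Hoxa11 (0.18), Hoxc11 (-0.91), Hoxd11 (-0.68) and Hoxd12 (1.04). Some of these passed in other fits. Hoxd11 fell with the offset (-0.98, adjusted p = 0.023), and DESeq2 called Hoxd11 (adjusted p = 0.025) and Hoxc11 (adjusted p = 0.014). Without E9.5 library 1 Hoxc11 (-1.20) and Hoxd11 (-0.95) passed, without E9.5 library 2 Hoxd12 (1.91), and without E10.5 library 3 Hoxc5 (-0.26), which also passed in all fits on FPKM. Exons of neighbouring Hox genes overlap on the same strand for Hoxd3 (62.3% of its exon bases) and Hoxd4 (52.3%), and 52.9% of those of Hoxb3 lie opposite another gene, so their counts are uncertain. With the offset Hoxa4, Hoxa6, Hoxb2 and Hoxb4 no longer passed. Hoxb2 also missed the threshold without E9.5 library 2 or 3 or E10.5 library 1 or 3 (adjusted p 0.062 to 0.071), where its change was -0.22 to -0.33, and Hoxb7 did without E9.5 library 1 or E10.5 library 1 or 2 (adjusted p 0.054 to 0.10).

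**Figure D4:**
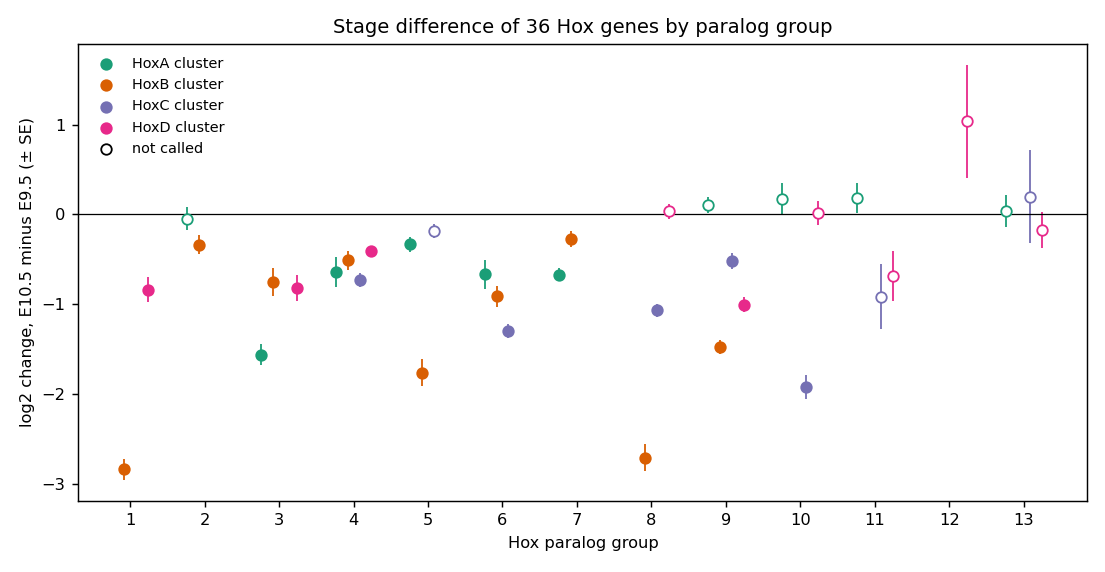
The log2 change from E9.5 to E10.5 in wild type, with its SE as a bar, is plotted for 36 Hox genes against paralog group, coloured by cluster, with filled points for the 23 genes that passed the test. Hoxb1 and Hoxb8 are the lowest points, and the genes of groups 10 to 13 other than Hoxc10 are open.

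Regulators of developmental timing, among them the Lin28 and let-7 pathway, split. Of 16 tested, 8 fell and 3 rose, with a median of -0.39 (-0.28 with the offset). Lin28a, which blocks let-7 maturation, went from 432 ± 48.3 to 202 ± 47.6 CPM (-1.13, adjusted p = 0.0019), and Hmga2 (chr10:120361275-120476469), a let-7 target, from 857 ± 23.1 to 443 ± 37.6 CPM (-0.98, adjusted p = 3.5e-06). Arid3b (chr9:57790353-57836793), another let-7 target, read 150, 161 and 174 CPM at E9.5 and 52.2, 59.2 and 56.7 CPM at E10.5 (-1.56, SE 0.07, adjusted p = 2.7e-07). Nr6a1, a nuclear receptor that acts on trunk length, went from 150 ± 7.07 to 64.1 ± 17.6 CPM (-1.26), and Hmga1 (-1.88), Myc (-1.28), Igf2bp2 (-0.74) and Mycn (-0.32) fell. Trim71, also a let-7 target, rose from 168 ± 2.35 to 243 ± 41.4 CPM (0.50), and Igf2bp3 rose by 0.21. Lin28b, the paralog of Lin28a, rose by 0.18 (adjusted p = 0.047), but with the offset it fell by 0.24 (adjusted p = 0.040). It no longer passed in any fit without a library other than E10.5 library 3 (0.11 to 0.21, adjusted p 0.053 to 0.16). Gdf11, a ligand that ends trunk formation, stood at 67.2 to 74.8 CPM at E9.5 and 72.8 to 85.2 CPM at E10.5, and Igf2bp1 at 525 to 624 and 601 to 674 CPM. Both overlapped between the stages, as did Arid3a at 171 to 177 and 172 to 188 CPM. Dnd1 (-0.47) and E2f5 (-0.10) did not pass. The calls of several of these genes depended on the offset. With it Mycn and Igf2bp3 no longer passed, while Gdf11 rose by 0.26 (adjusted p = 0.0098), Arid3a rose by 0.24 (adjusted p = 0.0073) and E2f5 fell by 0.25 (adjusted p = 0.0040). E2f5 also passed in the fits on FPKM and without E10.5 library 2 (-0.16, adjusted p = 0.047).

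Genes of neurons rose. Of 49 tested, 36 rose and 3 fell, with a median of 0.97 (0.97 with the offset). Tubb3, the neuronal beta-tubulin, read 40.3, 36.3 and 30.03 CPM at E9.5 and 169, 107 and 169 CPM at E10.5 (2.03, SE 0.22, adjusted p = 0.00057). Dcx, the microtubule-binding doublecortin of young neurons, read 8.88, 9.49 and 6.88 CPM at E9.5 and 71.5, 33.3 and 76.2 CPM at E10.5 (2.81, SE 0.38, adjusted p = 0.0023). Nhlh2 (chr3:102010076-102015492), a basic helix-loop-helix factor of newly formed neurons, read 3.43, 3.63 and 4.07 CPM at E9.5 and 30.5, 22.1 and 31.3 CPM at E10.5 (2.88, SE 0.15, adjusted p = 5.4e-07). In these 3 genes the stages were far apart, and E10.5 library 2 was the lowest of its group. The list's summed level followed that order, with 1205 CPM in E10.5 library 2 against 1620 and 1785 CPM in the others and 688 to 777 CPM at E9.5. The RNA-binding protein gene Elavl4 (1.75), the motor neuron factor Isl2 (1.34), the growth cone gene Stmn2 (1.55) and the adhesion gene Ncam1 (0.90) rose. Elavl3 rose by 0.61 (adjusted p = 0.016) and just missed the threshold without E9.5 library 3 (adjusted p = 0.051).

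Not every neuronal gene rose. The GABA-synthesising enzyme Gad1 read 1.52, 2.88 and 5.55 CPM at E9.5 and 0.808, 0.446 and 0.452 CPM at E10.5 (-2.57, and -1.97 without E9.5 library 3). The interneuron factors Lhx1 (-1.55) and Evx1 fell, both of which mark other tissues as well, the nephric duct and the tail bud. Gap43 at 32.5 to 34.4 and 26.2 to 32.1 CPM did not pass, but fell with the offset (-0.25, adjusted p = 0.038), without E10.5 library 1 (-0.25, adjusted p = 0.043) and in the fits on FPKM.

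Among 27 genes of spinal cord progenitors 13 fell and 6 rose (median -0.29, offset -0.16), whereas with the offset 7 fell and 8 rose. Nkx6-1, of the ventral cord, fell from 17.4 ± 0.883 to 7.26 ± 1.62 CPM (-1.29), and Sox3 (-1.22) and Dbx1 (-0.97) also fell. Gli1, a direct target of Sonic hedgehog signalling, fell from 69.2 ± 2.87 to 24.3 ± 5.06 CPM (-1.54). In which tissues it fell was not tested. Gli2, the main activator of that pathway, read 105, 105 and 97.4 CPM at E9.5 and 30.6, 32.2 and 35.4 CPM at E10.5 (-1.67, SE 0.07, adjusted p = 1.2e-07), and the receptor Ptch1 fell by 0.58. In the list of BMP, TGF-beta and Hedgehog genes 12 of 27 fell and 3 rose (median -0.26, offset -0.12). Among the 3 that rose was Hhip, also of the Hedgehog pathway, so its genes did not share a direction. Atoh1, of the most dorsal interneurons, rose from 0.309 ± 0.142 to 3.16 ± 1.54 CPM (3.32, adjusted p = 0.00041), and Fabp7, of radial glia (1.35), the Notch target Hes5 (0.60) and Prom1 (0.54) rose. Pax6 did not pass (-0.18), but fell without E10.5 library 2 (-0.32, adjusted p = 0.019). It also fell in the fits on FPKM, where small falls pass more readily.

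Of 29 genes of neural crest, glia and autonomic neurons 13 rose and 5 fell (median 0.30, offset 0.08). Ednrb, the endothelin receptor of migrating crest, read 33.4, 28.6 and 29.6 CPM at E9.5 and 80.9, 71.3 and 85.6 CPM at E10.5 (1.34, SE 0.09, adjusted p = 1.8e-06). The sensory neuron factors Neurod4 (1.5) and Isl1 (0.73) rose. Ret, the receptor for GDNF in enteric crest and nephric duct, went from 34.4 ± 1.42 to 13.3 ± 1.6 CPM (-1.40) and Gata2 fell by 1.17. Sox10, the defining gene of crest and glia, fell by 0.67 (adjusted p = 0.022), but not with the offset or without E9.5 library 1 or E10.5 library 3 (adjusted p 0.067 to 0.079).

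Skeletal muscle genes rose. Of 28 tested, 15 rose and 1 fell, with a median of 1.25 (1.11 with the offset). The median was 0.97 without E10.5 library 3. Mef2c, a cofactor of the myogenic regulators, read 22.8, 19.2 and 18.8 CPM at E9.5 and 47.9, 44.2 and 51.8 CPM at E10.5 (1.21, SE 0.10, adjusted p = 6.3e-06), and changed by 0.59 with the offset. Met, the receptor of migrating limb muscle precursors, went from 26.5 ± 2.79 to 48.7 ± 1.71 CPM (0.84). The fast myosin light chain Myl1 (1.85) and the troponins Tnnc2 (1.39) and Tnnt1 (1.82) rose from low means of 1.31 to 1.95 CPM, although 74.0% of the exon bases of Tnnc2 lie opposite another gene. The myogenic regulators themselves also rose: Myf5 by 0.72, Myog by 0.79 from 8.01 to 12.6 CPM to 12.7 to 21.6 CPM, and Myod1 by 1.45 from 0.142 to 0.179 CPM to 0.401 to 0.587 CPM. Pax3, of muscle precursors, dorsal cord and crest, fell by 0.29 (adjusted p = 0.012). Myog missed the threshold without E9.5 library 2 or 3 or E10.5 library 1 or 3, Myod1 without E10.5 library 3 and Pax3 without E9.5 library 2 (adjusted p 0.057 to 0.072), and Myf5 with the offset.

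Some sarcomere genes of the skeletal list are also expressed in the heart, and both lists differed widely between E10.5 libraries. The skeletal list summed to 249 to 293 CPM at E9.5 and to 556, 673 and 1639 CPM at E10.5. The summed level of the 25 heart muscle genes was 580, 548 and 649 CPM at E9.5 and 644, 977 and 2465 CPM at E10.5. Of 19 tested, 2 rose and none fell although the median was 2.54. That median was 0.98 without E10.5 library 3. The cardiac myosin gene Myh6 read 0.477, 0.391 and 13.9 CPM at E9.5 and 2.23, 66.8 and 243 CPM at E10.5, and Actc1 read 41.5, 36.5 and 66.8 CPM and 53.3, 110 and 327 CPM. Neither passed, although DESeq2 called both (adjusted p = 0.034 for Myh6 and 0.048 for Actc1), and in both the third library was the highest at both stages. The part of the heart in each library was not tested. The 2 that rose were Ttn, the giant sarcomere protein, at 7.69, 6.86 and 8.5 CPM against 135, 201 and 762 CPM (5.54, SE 0.96, adjusted p = 0.0092), and the cardiac factor Tbx20 (0.75). Ttn changed by 4.42 without E10.5 library 3 and by 3.29 with the offset. Its exons span 116825 bases, the longest exon length among the genes named here. Tbx20 did not pass with the offset or without any 1 of the E9.5 libraries (adjusted p 0.096 to 0.12).

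Limb, connective tissue and cartilage genes moved both ways, and for limb and cartilage the shares of calls were near those over all kept genes. Of 24 limb bud genes 8 rose and 9 fell (median -0.16, offset 0.04), and with the offset 7 rose and 7 fell. Shox2, a homeobox gene of the proximal limb, read 2.92, 3.38 and 4.88 CPM at E9.5 and 27.9, 13.4 and 27.5 CPM at E10.5 (2.59, SE 0.35, adjusted p = 0.00085). Tbx15 rose from 3.19 ± 1.34 to 18.1 ± 4.17 CPM (2.46) and En1, of the ventral limb ectoderm and of spinal interneurons, by 1.15. The outgrowth signal Fgf10 fell from 16.2 ± 0.906 to 9.93 ± 0.938 CPM (-0.74), as did Msx1 (-0.73) and the hindlimb factor Pitx1 (-0.79). Of 30 genes of connective tissue matrix 15 rose and 4 fell (median 0.43, offset 0.27). The mesenchymal receptor gene Pdgfra rose from 216 ± 20.4 to 347 ± 26.9 CPM (0.65), and Col5a2 (0.85) and the collagen cross-linker Lox (1.25) rose. Col1a1 fell from 410 ± 106 to 168 ± 32.4 CPM (-1.32) and fibronectin, Fn1, from 790 ± 118 to 528 ± 68.3 CPM (-0.61). Neither passed in the fit of all 18 libraries, and in Del(i9-13) 7 of the 30 list genes rose and none fell. In the main wild type comparison collagen genes thus did not share a direction.

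In the sclerotome and cartilage list 6 of 20 rose and 6 fell, shares near those over all kept genes (median 0.07, offset -0.05). Pax1, which specifies the ventral sclerotome, read 39.8, 37.3 and 33.7 CPM at E9.5 and 11.8, 9.99 and 14.2 CPM at E10.5 (-1.66, SE 0.13, adjusted p = 5.6e-06), and the chondrogenic factor Sox9 (-0.55) and its target Col2a1 (-0.64) fell. The tendon factor Scx rose by 1.91, from 0.622 ± 0.192 to 2.43 ± 0.951 CPM. Among 22 nephric and genital ridge genes 9 fell and 4 rose (median -0.43, offset -0.21). Pax2, which specifies the nephric lineage, read 5.63, 6.37 and 4.6 CPM at E9.5 and 0.666, 0.981 and 1.17 CPM at E10.5 (-2.58, SE 0.24, adjusted p = 1.6e-05), beside the falls of Ret and Lhx1. The calcium buffer gene Calb1 rose from 0.246 ± 0.126 to 3.11 ± 1.48 CPM (3.61, adjusted p = 0.00021).

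Red cell genes rose together. Of 14 genes of erythroid maturation 12 rose and none fell (median 0.60, offset 0.71). Klf1, the activator of red cell genes, read 9.95, 10.1 and 11.2 CPM at E9.5 and 25.0, 22.7 and 18.7 CPM at E10.5 (1.05, SE 0.12, adjusted p = 5.4e-05). Hemgn rose by 0.94 and the transferrin receptor Tfrc by 0.65, the last not with the offset (0.23). Bcl11a rose by 1.66 and is also expressed in neurons. The embryonic globin Hbb-y, the most abundant of those tested, went from 2439 ± 296 to 4628 ± 1126 CPM (0.89, adjusted p = 0.0095). Hbb-bh1 rose by 0.57 (adjusted p = 0.020), but not without E9.5 library 2 or 3 or E10.5 library 1 or 2 (adjusted p 0.066 to 0.070). Hba-x, at 1948 to 2070 and 1782 to 2370 CPM, overlapped between the stages and passed with the offset (0.30, adjusted p = 0.011). Of the adult globins Hbb-bt rose from 0.632 to 3.45 CPM to 12.4 to 25.8 CPM (3.00, adjusted p = 0.012, and 0.057 without E9.5 library 1), and Hbb-bs at 9.34 to 19.2 and 5.37 to 18.6 CPM overlapped. The copies Hba-a1 and Hba-a2 are near-identical, and how their reads were assigned was not tested, so neither is given a direction.

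Macrophage and early blood genes rose from low levels. Of 21 tested, 13 rose and 2 fell (median 0.77, offset 0.79). Ptprc (chr1:138063407-138175306), which encodes the pan-leukocyte antigen CD45, read 0.238, 0.107 and 0.105 CPM at E9.5 and 2.57, 1.69 and 1.54 CPM at E10.5 (3.57, SE 0.41, adjusted p = 5.9e-05, offset 2.84). The macrophage genes Cx3cr1 (2.31), C1qb (3.19), Csf1r (1.15) and Mrc1 (2.95, and 3.55 without E9.5 library 3) and the myeloid enzyme gene Mpo (2.36) rose. In each of these 6 genes every E10.5 library was above every E9.5 library. Kit, of early progenitors, germ cells and melanoblasts, fell by 0.28 (adjusted p = 0.013, and 0.058 without E9.5 library 1).

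Endothelial genes split. Of 31 tested, 14 fell and 4 rose (median -0.23, offset -0.09), and with the offset 12 fell and 9 rose. The pan-endothelial gene Pecam1 rose from 47.5 ± 3.77 to 65.4 ± 3.39 CPM (0.43) and the angiopoietin receptor Tek by 0.39. Cdh5, which encodes the junction protein VE-cadherin, fell from 109 ± 4.29 to 73.8 ± 10.51 CPM (-0.59), as did Sox7 (-1.03) and the arterial Notch ligand Dll4 (-0.84). Of the defining markers Pecam1 rose and Cdh5 fell, each without overlap, and Kdr was among the 4 that rose. The defining markers therefore did not share a direction.

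Liver genes varied widely between libraries. Of 25 tested, 7 rose, a share near that over all kept genes, and 2 fell (median 1.76, offset 1.88). The median was 1.08 without E10.5 library 1. The fetal marker Afp read 13.1, 17.6 and 74.9 CPM at E9.5 and 410, 181 and 151 CPM at E10.5 and did not pass (2.78, adjusted p = 0.067). The third E9.5 library was the highest of its stage, and without it Afp passed (3.98, adjusted p = 0.022), as it did in DESeq2. Serpina6, which encodes corticosteroid-binding globulin, read 0.0298, 0.0711 and 0.281 CPM at E9.5 and 6.42, 3.03 and 4.88 CPM at E10.5 (5.19, SE 0.55, adjusted p = 6.5e-05), and its change was 6.44 without E9.5 library 3. The fibrinogen chain Fga rose by 3.79 (adjusted p = 0.0097). Its change was 5.19 without E9.5 library 3 and 3.16 without E10.5 library 1, and it just missed the threshold without E9.5 library 1 (adjusted p = 0.05005). Dlk1, also an imprinted gene, fell from 415 ± 18.2 to 199 ± 28.7 CPM (-1.09).

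Epithelial genes fell more often than they rose. In gut, lung and pancreas epithelium 13 of 26 fell and 3 rose (median -0.43, offset -0.09), and in surface ectoderm 7 of 17 fell and none rose (median -0.27, offset -0.03). E-cadherin, Cdh1, fell from 37.6 ± 3.81 to 19.2 ± 1.22 CPM (-1.0), and the endoderm pioneer factor Foxa1 from 10.1 ± 3.61 to 2.74 ± 0.762 CPM (-1.91). Tfap2a, of ectoderm and crest, read 13.4, 13.5 and 13.8 CPM at E9.5 and 2.57, 2.59 and 2.89 CPM at E10.5 (-2.37, SE 0.12, adjusted p = 4.6e-07, offset -2.37). Dlx3 fell by 1.73.

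Markers of head and of extraembryonic tissue were not all near 0. Of the defining head markers, Otx2 was at most 0.0298 CPM in any wild type library, while Hesx1 and Emx1 had enough counts to be tested and did not pass. Of 23 genes of head and forebrain 10 were tested, of which 2 rose and 4 fell. The list summed to 101 to 110 CPM at E9.5 and 82.0 to 91.2 CPM at E10.5. Of 19 genes of extraembryonic and maternal tissue 6 were tested, with 2 that rose and 2 that fell. Of its defining markers, the trophoblast gene Tpbpa was at most 0.0452 CPM, Plac1 fell, and Pgr was tested and did not pass.

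Genes of ribosome biogenesis and of glycolysis fell more often than they rose. In ribosome biogenesis 24 of 33 fell and 2 rose (median -0.33, offset -0.37). Fibrillarin, Fbl, which methylates ribosomal RNA, went from 145 ± 3.10 to 75.9 ± 9.84 CPM (-0.97), Mybbp1a from 731 ± 10.7 to 400 ± 46.2 CPM (-0.90) and Nop14 from 102 ± 2.95 to 53 ± 6.45 CPM (-0.97), while Heatr1 rose by 0.45. In glycolysis and hypoxia 18 of 31 fell and 2 rose (median -0.31, offset -0.25). The glucose transporter gene Slc2a1 fell from 523 ± 18.3 to 278 ± 26.9 CPM (-0.94), Ldha from 2430 ± 133 to 1363 ± 157 CPM (-0.87) and Gapdh from 1531 ± 148 to 964 ± 61.4 CPM (-0.70). Ldhb, the subunit of oxidative tissues, rose from 48.6 ± 4.47 to 73.1 ± 8.55 CPM (0.56). Of 27 nuclear genes of the respiratory chain 9 rose, a share near that over all kept genes, and 1 fell (median 0.10, offset 0.11). With the offset 12 rose and 5 fell. Ndufs1 rose (0.29, not with the offset) and Cyc1 fell (-0.54). The list's median changed sign in the 3 fits on FPKM (-0.06 in each). In the repeat of the stage comparison in homozygous deletion libraries none of the 27 rose and 1 fell, with a median of 0.10.

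In sterol synthesis, a list chosen with values of these libraries in view, 10 of 24 fell and 4 rose (median -0.13, offset -0.10). Dhcr7, the last enzyme of cholesterol synthesis, fell from 95.4 ± 5.58 to 33.7 ± 5.25 CPM (-1.53) and the regulator Srebf2 from 358 ± 10.2 to 155 ± 22.2 CPM (-1.24), while Insig1 and Hmgcs1 rose by 0.32 each, the latter not with the offset. Cell division genes moved both ways, with 9 of 32 that rose, a share near that over all kept genes, and 14 that fell (median -0.11, offset -0.05). Topoisomerase Top2a rose from 823 ± 25.6 to 1573 ± 77.0 CPM (0.90) and Mki67 from 660 ± 61.7 to 1074 ± 59.5 CPM (0.67), whereas the mitotic kinase Plk1 (-0.94) and the S phase activator E2f1 (-1.12) fell. Among 23 genes of cell cycle exit and p53 targets 7 rose, a share near that over all kept genes, and 9 fell (median 0.11, offset 0.11). Trp53inp1 rose from 18.1 ± 2.02 to 60.4 ± 6.53 CPM (1.71) and the imprinted inhibitor Cdkn1c by 0.74, and Cdkn1a, which encodes p21, fell from 14.5 ± 3.65 to 5.11 ± 0.557 CPM (-1.54).

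Of 28 imprinted and growth genes 8 rose, a share near that over all kept genes, and 11 fell (median 0.03, offset -0.14). The growth factor gene Igf1 rose from 11.95 ± 0.718 to 45.9 ± 13.7 CPM (1.91). Peg10, a retrotransposon-derived gene of the placenta, read 1801, 1787 and 1658 CPM at E9.5 and 654, 725 and 805 CPM at E10.5 (-1.30, SE 0.08, adjusted p = 1.5e-06), and Magel2 went from 18.7 ± 1.33 to 5.47 ± 0.231 CPM (-1.81). In the retinoic acid list 11 of 21 fell and 5 rose (median -0.21, offset 0.04), and with the offset 6 fell and 6 rose. The receptor Rarg fell from 72.4 ± 4.90 to 35.8 ± 2.64 CPM (-1.05) and the retinol carrier receptor Stra6 by 0.77. The receptor Rarb, itself induced by retinoic acid, rose from 47.0 ± 1.59 to 73.2 ± 1.13 CPM (0.61), and the reductase Dhrs3 rose by 0.78.

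The largest changes of all kept genes with a mean of at least 5 CPM at the higher stage and no overlap were named by rule, up to 10 in each direction. Besides Ttn, Mrc1 and Hbb-bt, those that rose included Mab21l1 (3.84, adjusted p = 5.4e-05), which acts in the eye, the GABA receptor subunit Gabrp (3.57) and the apolipoprotein Apob (3.34). The others were the neuregulin receptor Erbb4 (3.12), Klhl31 (3.10) of striated muscle, the fibrinogen chain Fgg (2.97) and the muscle and neuron scaffold Akap6 (2.95). Mab21l1 stood at 0.387, 0.427 and 0.316 CPM at E9.5 and 8.46, 3.03 and 5.28 CPM at E10.5. Leaving out E9.5 library 2 gave 4.20 for Gabrp, and leaving out E9.5 library 3 gave 3.78 for Erbb4 and 4.43 for Fgg. Fgg narrowly missed the threshold without E9.5 library 2 (adjusted p = 0.051). Apob, at 5.66, 4.77 and 9.41 CPM and 133, 56.3 and 17.3 CPM, passed in the full comparison (adjusted p = 0.038) but not with the offset, nor in 5 of the 6 fits without a library, all but that without E10.5 library 3 (adjusted p 0.058 to 0.12), and was 2.45 without E10.5 library 1.

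Among those that fell most, besides Cdx4, were the growth factor gene Igf2 (-3.58), Atn1 (-3.49), Mospd3 (-3.24), the repressor of Wnt targets Tcf7l1 (-3.07), the histone chaperone gene Anp32b (-2.97), Mbd6 (-2.94), the histone methyltransferase gene Setd1b (-2.91) and Eif3j2 (-6.69). Tcf7l1 read 78.0, 80.3 and 80.9 CPM at E9.5 and 7.23, 9.18 and 12.6 CPM at E10.5 (SE 0.18, adjusted p = 6.6e-06, offset -2.66). The groups lay far apart with little spread. Atn1, Mospd3, Tcf7l1, Mbd6 and Setd1b have an exon GC content of 59.0 to 63.1%, among the 3511 genes highest in GC, and their changes with the offset were -2.64 to -3.14. On the deposited FPKM scale Igf2 went from a mean of 599 to one of 184, and its change in the fits on FPKM was smaller (-1.70). Counts of Igf2 and Atn1 are uncertain, since 62.8% and 84.2% of their exon bases are shared with another gene on the same strand. Eif3j2 is a copy of Eif3j1 and read 11.7, 1.14 and 25.4 CPM at E9.5 and at most 0.181 CPM at E10.5. It passed in the full comparison (adjusted p = 0.031) and without E9.5 library 2 or 3 (-5.71 without library 3), but not without E9.5 library 1 or any E10.5 library (adjusted p 0.072 to 0.11). In Del(i9-13) its change was -0.99.

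The stage comparison was repeated in Del(i9-13) libraries, which share none of the wild type libraries but have the same coincidence of stage and kit. There 3241 kept genes rose (22.9%) and 3865 fell (27.3%), 50.2% of 14166. With an absolute log2 change of at least 1, 1072 rose (7.57%) and 990 fell (6.99%), 14.6% in all. Among genes tested in both genotypes, 2662 of the 3795 that rose in wild type (70.1%) also rose in Del(i9-13), 83.5% of the calls there. Of the 4295 that fell, 3381 (78.7%) also fell, 88.2% of the calls there, and 7 rose. Of 830 genes that rose by at least 1 in wild type and were tested in both genotypes, 675 (81.3%) did so in Del(i9-13), which is 66.2% of the calls there. Of 800 that fell by at least 1, 677 (84.6%) did so, 70.6% of the calls there, and 1 rose by at least 1. Among 715 list genes tested in both, 641 (89.7%) had the same sign.

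For the members listed next, which are only some of those described above, direction was the same in the repeat. In Del(i9-13) the log2 changes were -4.86 for Cdx4, -4.01 for Mesp2, -3.47 for Hes7, -3.27 for Tbx6, -3.30 for Hoxb1, -2.67 for Hoxb8 and -1.78 for Arid3b, and 3.78 for Nhlh2, 3.78 for Dcx, 3.14 for Tubb3, 3.99 for Shox2 and 4.66 for Ptprc. T, which did not pass in wild type, fell by 2.86 there (adjusted p = 6.5e-06). Sox2 (-0.09), Hoxb7 (0.32) and Lin28b (-0.07), which passed narrowly in wild type, had the other sign in Del(i9-13) and did not pass there. Hox genes of groups 10 to 13 differed in calls, with 3 that rose and none that fell, and Hoxc10 (-2.29) did not pass. For all of these the interaction did not pass either. The median that differed most between the genotypes was that of the liver list, at 0.37 in Del(i9-13) with 2 that rose and 1 that fell of 24. Sterol synthesis, below 0 in wild type, was at 0.32 with 15 that rose and 5 that fell of 24. Of 16 timing genes none rose and 8 fell in Del(i9-13), so the rises of Trim71 and Igf2bp3 did not pass there. Of 18 heart muscle genes tested there 11 rose and none fell. Whether these lists differ between genotypes was not tested.

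**Figure D5:**
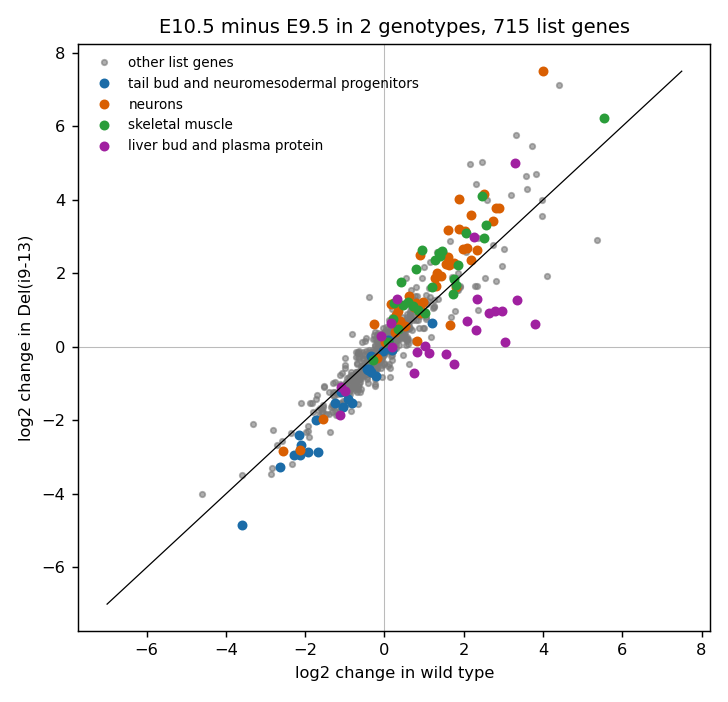
Each point is 1 of 715 list genes, with its log2 change from E9.5 to E10.5 in wild type on the horizontal axis and in Del(i9-13) on the vertical axis, the diagonal marking equal change. Neuron (orange) and skeletal muscle (green) genes lie mostly in the upper right, tail bud genes (blue) mostly in the lower left, and liver genes (purple) mostly below the diagonal.

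Whether the stage difference itself depended on the deletion was tested gene by gene as an interaction in the 12 libraries. Of 14480 kept genes tested, 1 (0.00691%) passed in edgeR, Rhbdl3, and 993 had an unadjusted p under 0.05. DESeq2 called 59. Rhbdl3, a rhomboid-like protease gene, went from 17.9 to 36.9 CPM on average in wild type and from 9.33 to 36.4 CPM in Del(i9-13) (interaction 0.92, SE 0.13, adjusted p = 0.036).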

How the data were processed

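The gene lists, the genes shown and the questions asked were chosen with earlier results of these data known. The deposited count table holds whole-number read counts per gene made by the authors, and the deposited FPKM table holds FPKM values (fragments scaled by transcript length and depth) from Cufflinks 2.2.1. The submitters' processing notes also name cutadapt 1.18, STAR 2.7.10a and the build mm10. HTSeq is given as the counting tool only in the name of the deposited count table, with no version, strand setting or gene annotation stated. Kits follow the labels' protocols.

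Genes were classed with GENCODE M21. Counts were tested in all genes with at least 10 counts in enough libraries (filterByExpr, minimum total 15) by edgeR 4.0.16 (quasi-likelihood, R 4.3.3), scaled by TMM over the kept genes, 3 libraries against 3. Benjamini-Hochberg adjustment ran over all genes tested, and 0.05 was the threshold. DESeq2 1.42.0, limma 3.58.1 on log2(FPKM + 0.1) and on log2(FPKM + 1), other scalings and filters, an offset from natural splines of exon length and GC content (5 degrees of freedom each), a replicate block and leaving out each library were alternatives. So was a fit of all 18 libraries of the series, for the wild type comparison. On simulated counts of 16307 genes the wild type fit recovered 72.9% of 96 genes changed by a log2 of 1 and 94.8% of 96 changed by 2, with 14 false calls. Far fewer genes changed there than were called in these data, and no GC trend or kit difference was simulated. The simulation therefore does not show how many calls in these data are false. Replicates differed by more than counting noise (chi-square per degree of freedom 7.93 to 17.4).

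Named were the 10 largest changes each way, up to 6 called members each way by p and up to 3 others by level from each list, and all Hox, globin and timing genes; only some of these are printed. T, Cdx2, Tbx6, Hes7, Tubb3, Dcx, Stmn2, Elavl3, Myog, Myod1, Csf1r, Otx2 and Tpbpa fall outside this rule and were chosen after their values were seen. Exons of Hoxa11, Hes5, Cdkn1c and Rarb lie opposite another gene over 30.7 to 38.4% of their bases, which matters if strand was not used in counting. Some genes that the rule names are not reported here.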

Additional observations from a re-analysis of the deposited data

Results flagged for a closer look

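Rhbdl3 was singled out because its stage difference differed between genotypes in the test of the interaction itself. The interaction was 0.92 on the log2 scale (SE 0.13, edgeR adjusted p = 0.036), with a rise of 1.01 in wild type and of 1.93 in Del(i9-13). The mean level was 17.9 ± 1.23 CPM at E9.5 in wild type and 9.33 ± 0.837 CPM in Del(i9-13), against 36.9 ± 2.21 and 36.4 ± 2.71 CPM at E10.5 (SD, n = 3 each). The call held in 5 of 15 alternatives and was lost in 10, with the same direction in all 15.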

How the results depend on the processing

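Against 3829 genes that rose in wild type, tests on FPKM gave 1792 (pseudocount 0.1), 1802 (pseudocount 1) and 1977 (no filter), with 5491, 5504 and 5399 that fell, and medians over kept genes of -0.21, -0.19 and -0.11; the cause was not tested. Upper quartile scaling, with a median of 0.07, made 57.3% of the calls rises, against 47.1%. Requiring an absolute log2 of at least 1 left 863 and 809 by construction. Leaving out a library gave 3359 to 3707 that rose and 3817 to 4244 that fell. For the interaction, with 1 call higher and 0 lower, TMM over all genes gave 2 higher, DESeq2 47 higher and 12 lower, and leaving out a library 0 to 9 higher and 0 to 3 lower; the cause was not tested.

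The labels do not say that replicate numbers pair the samples, and the main fits used no pairing. Deviations of same-numbered libraries correlated at 0.14, 0.087 and -0.035 in wild type, against -0.28 to 0.18 for different numbers. In Del(i9-13) those of the same number were -0.22, 0.25 and -0.33. With 3 libraries a group these values cannot exclude a pairing. With the replicate block 3587 genes rose and 4075 fell in wild type, 3130 and 3837 in Del(i9-13), and the interaction had 1 call higher, which was not Rhbdl3 (adjusted p = 0.056), and 0 lower. Of the wild type genes named, Sox2, Cdx2, Cdx4, Tbx6, Lin28b, Fgg and Apob did not pass with the block (adjusted p 0.060 to 0.16), while Hoxd11 and Hba-a1 did. Among the 194 genes counted below, the block changed no other call.

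Of 194 genes tested by name 180 passed, 179 of them kept their direction in every alternative and 145 also kept their call. These counts leave out Kdr, Hhip, Hesx1, Emx1, Plac1 and Pgr. Lin28b, at 0.18, was -0.24 with the length and GC offset. On FPKM (pseudocount 0.1) Ttn, Myh6, Serpina6, Apob and Igf2 moved by over 1.5 times, to 3.65, 3.62, 3.71, 1.9 and -1.71. All fits on FPKM ended the rises of Sox2, Igf2bp3, Lin28b, Hbb-bh1, Ndufs1, Insig1 and Hmgcs1. The same fits made Hoxc5, E2f5, Gap43 and Pax6 pass as falls. The fit of all 18 libraries ended the calls of Hoxb7, Tbx20, Fn1, Col1a1, Kit, Tek and Apob, and made T, Afp and Hba-a1 pass. All 13 genes given by level alone changed sign in some alternative. List medians moved by more than the spread between libraries in 136 of 684 cases. With 3 libraries a stage, kit and stage in step, and sums of heart and liver genes that differ between replicates, small changes and those lists are the least certain.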

Other observations

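Pluripotency and germ cell genes were mostly too low to be tested. Only 11 of 24 were tested, of which 1 rose and 4 fell, with a median log2 change of -0.28 (offset -0.32) and of -0.56 in Del(i9-13).

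The adult alpha globin copy Hba-a2 read 2.00, 0.569 and 112 CPM at E9.5 and 0.143, 0.267 and 0.0903 CPM at E10.5, with the third E9.5 library alone high. The other copy, Hba-a1, read 356, 371 and 240 CPM at E9.5 and 542, 498 and 358 CPM at E10.5. In that E9.5 library Hba-a1 was the lowest of its stage.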
